A study of Mus musculus with 9 samples.

Results

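Transcript levels of 10 regulators of transcription in male germ cells, Crem, Fhl5, Tbpl1, Taf7l, Gtf2a1l, Rfx2, Sox30, Mybl1, Tcfl5 and Brwd1, were followed from spermatogonia through pachytene spermatocytes to round spermatids. They were taken by gene symbol from a table of 39336 features, and all 10 were found and measured in every library. The mice were adult males on a normal diet, and the labels name no strain, mutation or treatment. Total RNA from germ cells of the testis was sequenced in 3 libraries of spermatogonia, types A and B together, 3 of pachytene spermatocytes and 3 of round spermatids. The series calls the libraries of a stage biological replicates, but the labels say neither whether separate animals were used nor how the cells were isolated, so a p-value here measures the spread between these libraries.

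Meiotic and haploid male germ cells use transcription factors of their own, and several are copies of general factors that every cell has. CREM, a cAMP-responsive activator, drives many genes of spermatid differentiation together with its coactivator FHL5, also called ACT. TBPL1, TAF7L and GTF2A1L are relatives of TBP, of the TFIID subunit TAF7 and of the large TFIIA subunit. MYBL1, or A-MYB, and the bHLH factor TCFL5 act in the pachytene programme, RFX2 binds X-box motifs of cilium and spermatid genes, SOX30 is an HMG-box factor of late spermatocytes and spermatids, and BRWD1 reads acetylated chromatin through its bromodomains.

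As a group, the regulators were low in spermatogonia and high afterwards, with exceptions. Their summed level was 179 to 212 FPKM in the spermatogonia libraries, 1362 to 1373 in pachytene and 1792 to 1916 in round spermatids, where FPKM is fragments per kilobase of transcript per M mapped fragments (M, mega). The mean was highest in round spermatids for Crem, Fhl5, Tbpl1, Gtf2a1l, Rfx2 and Sox30 and highest in pachytene for Mybl1 and Tcfl5. Taf7l and Brwd1 had their highest mean in spermatogonia and their lowest in pachytene. The description as meiotic and spermatid regulators thus does not match the stage of their highest mean. Under the calling rule given below, neither passed between spermatogonia and round spermatids, nor did Brwd1 between pachytene and round spermatids.

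Upstream sequences are printed for Rfx2, Tcfl5, Sox30, Gtf2a1l and Taf7l, each with a motif match in the stretch, to show which letters they hold. The sequences are from RefSeq, build GRCm38.p6, and are the 250 bases before the annotated start site, written 5′ to 3′ on the strand of the gene. Capitals mark TAACNG (MYB), GTTGCC (an X-box half-site), TGACG (a half-site of the cAMP-response element) and CACGTG (an E-box), searched on both strands. The stretch before Rfx2 is chr17:56831009-56831258 and that before Tcfl5 is chr2:180642692-180642941, both on the minus strand. That before Sox30 is chr11:45980060-45980309 and that before Gtf2a1l is chr17:88668410-88668659, both on the plus strand. That before Taf7l is chrX:134476491-134476740 on the minus strand. The first 4 rose between spermatogonia and pachytene, and Taf7l fell.
Rfx2: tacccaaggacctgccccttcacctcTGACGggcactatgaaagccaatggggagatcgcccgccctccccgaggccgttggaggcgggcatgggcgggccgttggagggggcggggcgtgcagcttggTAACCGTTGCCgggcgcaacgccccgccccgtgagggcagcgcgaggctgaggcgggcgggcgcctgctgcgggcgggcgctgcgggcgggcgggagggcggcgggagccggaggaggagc
Tcfl5: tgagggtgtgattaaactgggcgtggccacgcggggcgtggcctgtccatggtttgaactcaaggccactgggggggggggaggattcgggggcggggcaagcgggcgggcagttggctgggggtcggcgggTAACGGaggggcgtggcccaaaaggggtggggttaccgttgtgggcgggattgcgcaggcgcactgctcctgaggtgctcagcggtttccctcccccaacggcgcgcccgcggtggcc
Sox30: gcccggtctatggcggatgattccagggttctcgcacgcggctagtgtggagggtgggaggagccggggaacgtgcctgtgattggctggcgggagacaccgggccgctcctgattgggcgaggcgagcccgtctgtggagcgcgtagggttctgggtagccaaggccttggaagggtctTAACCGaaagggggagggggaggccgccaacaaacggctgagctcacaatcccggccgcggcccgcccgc
Gtf2a1l: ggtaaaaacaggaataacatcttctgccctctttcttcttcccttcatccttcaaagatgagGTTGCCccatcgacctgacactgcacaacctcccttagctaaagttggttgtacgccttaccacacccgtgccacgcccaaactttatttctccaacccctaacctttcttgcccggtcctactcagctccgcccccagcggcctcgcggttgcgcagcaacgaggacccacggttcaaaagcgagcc
Taf7l: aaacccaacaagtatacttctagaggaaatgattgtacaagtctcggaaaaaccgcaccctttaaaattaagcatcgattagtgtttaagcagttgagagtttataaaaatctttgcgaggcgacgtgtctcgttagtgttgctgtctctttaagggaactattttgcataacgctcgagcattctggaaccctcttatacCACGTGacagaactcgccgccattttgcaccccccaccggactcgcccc

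In windows from 250 bases before to 50 after the start, TAACNG occurred in 5 of 9 windows of 8 regulators, 1 each of Fhl5, which has 2 windows, Gtf2a1l, Rfx2, Sox30 and Tcfl5, against 23.3% of all 32851 windows. Brwd1 and Tbpl1 were searched and held no match to any motif given here, and Fhl5, which held matches, is not printed. Crem and Mybl1 were not searched. The match in Gtf2a1l lies 29 bases inside the gene and is not in the printed stretch. In Rfx2, the MYB match begins at -121 from the start and shares its last base with the X-box half-site, which begins at -116. That half-site also occurred in Gtf2a1l at -188, against 12.5% of all windows. TGACG occurred in Rfx2 alone, at -224 (20.8% of windows), CACGTG in Taf7l alone, at -49 (7.15%), and the SOX letters ACAATNG in 1 of 2 Fhl5 windows (8.09%). The full element TGACGTCA occurred in none of the 8 and in 1.79% of all windows. These matches describe letters only, and no binding was measured here.

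In sum, the markers of each stage were highest in the libraries of that label. The summed FPKM of 14 spermatid markers was 2.18 to 2.52 in spermatogonia, 1584 to 1783 in pachytene and 17492 to 17936 in round spermatids, and 8 pachytene markers summed to 116 to 138, 7280 to 7479 and 5270 to 5532. Under the calling rule given below, 3 of these 8 fell into round spermatids, Hist1h1t, Piwil1 and Sycp3, and 5 did not pass. The fall of Hist1h1t was from 1973 to 172 FPKM. The 10 spermatogonia markers summed to 310.0 to 396 in spermatogonia, 40.3 to 44.2 in pachytene and 79.7 to 83.6 in round spermatids. Of the 10, 8 were called lower in round spermatids than in spermatogonia, and 2, Gfra1 and Nanos3, did not pass. Other testis cells were also represented in the spermatogonia libraries, with 11 Sertoli markers at 1290 to 1536 against 303 to 317 and 83.8 to 85.7, and 9 peritubular and interstitial markers at 191 to 413 against 11.0 to 11.9 and 36.0 to 37.7. Spermatogonia replicate 3 was highest for the latter and for 6 blood cell markers, at 276 against 106 and 116 in the other 2, 1.16 to 1.86 in pachytene and 8.26 to 11.3 in round spermatids. These are sums: of the 11 Sertoli markers, 10 fell into pachytene and 1, Rhox5, rose from 0.822 to 4.04 FPKM. The sum of 7 Leydig markers was instead highest in pachytene, at 88.2 to 96.2 against 13.4 to 14.9 and 18.9 to 27.5. Insl3 alone was at 65.9 ± 3.79 FPKM in pachytene, while Star and Hsd3b1 overlapped between spermatogonia and pachytene. No marker of any list was at 0 in every library, although 9 of the 14 spermatid markers averaged under 0.1 FPKM in spermatogonia. In bulk samples like these, fewer cells of a type and less RNA per cell cannot be told apart.

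**Figure D1:**
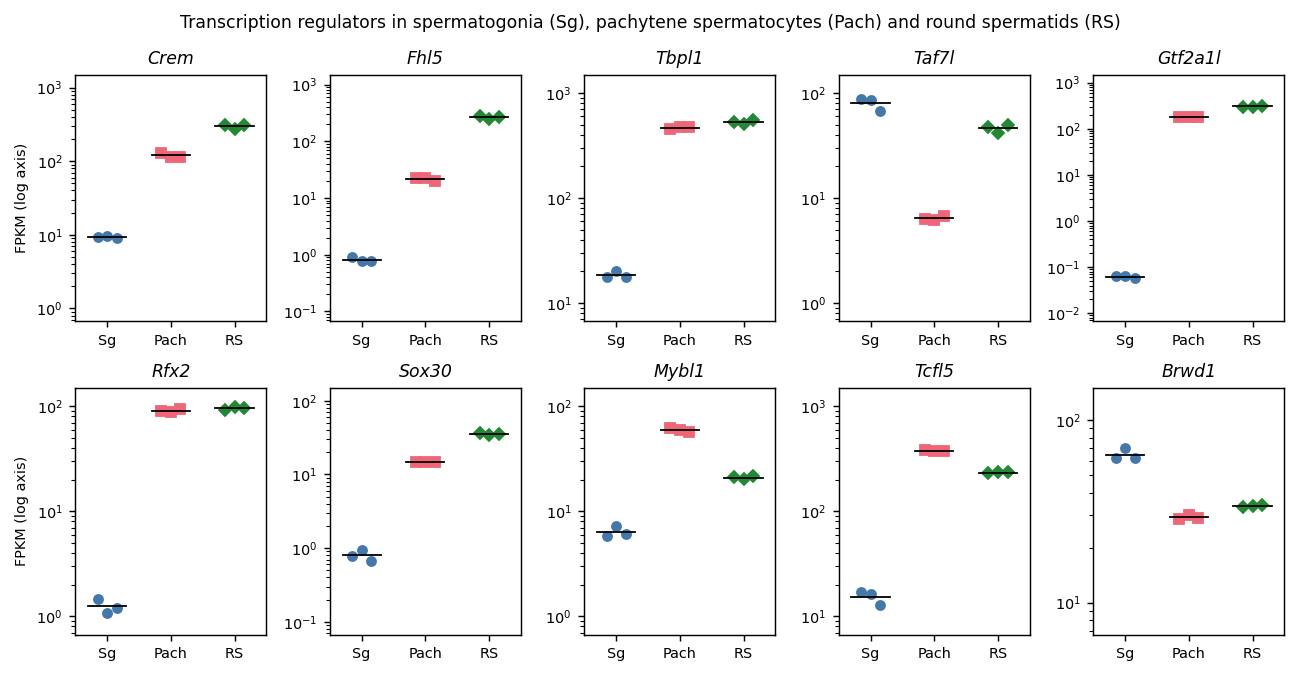
FPKM of each regulator (log axis, a scale of its own per panel) in spermatogonia (Sg), pachytene spermatocytes (Pach) and round spermatids (RS); a point is a library and a line is the mean of 3. Taf7l and Brwd1 are highest in spermatogonia, Mybl1 and Tcfl5 in pachytene, and Rfx2 overlaps between pachytene and round spermatids.

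The first comparison asks which regulators changed as germ cells went from spermatogonia to pachytene. A gene was called changed when its adjusted p in limma was under 0.05 and its log2 fold change was 1 or more in size. All 10 regulators passed, 8 up and 2 down, where 67.6% of the 17987 tested features passed, 36.6% up and 31% down. Their median log2 fold change was 4.31, and that of all tested features was 0.26. The second comparison, round spermatids against pachytene, shares the pachytene libraries with the first. In it, Crem, Fhl5, Sox30 and Taf7l rose, Mybl1 fell and 5 did not pass, where 40.8% of all features passed, 27.3% up and 13.4% down, and the medians were 0.48 for the regulators and 0.13 for all features. With libraries scaled to equal medians, the share of upward calls among all features there was 49.2% in place of 67.0%. Between spermatogonia and round spermatids 8 rose and none fell, where 68.6% of features passed, 38.5% up and 30.1% down; Taf7l and Brwd1 did not pass that test. With the same scaling, Crem and Sox30 no longer passed in the second comparison (log2 fold changes 0.95 and 0.89), and Tcfl5 passed as a fall (-1.05).

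**Figure D2:**
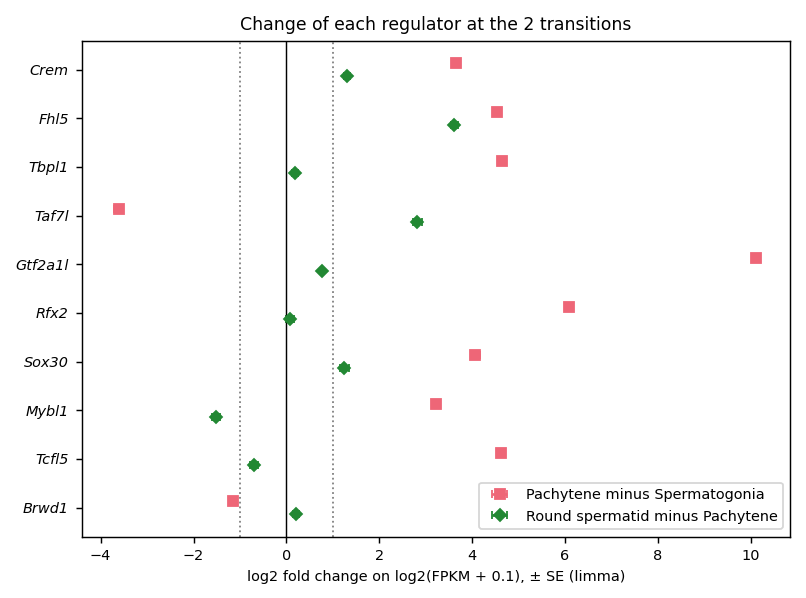
log2 fold change of each regulator on log2(FPKM + 0.1), with its SE from limma; squares are pachytene minus spermatogonia, diamonds round spermatids minus pachytene, and dotted lines a change of 1. Between spermatogonia and pachytene, 8 squares lie beyond 1 and 2 beyond -1, while 5 diamonds lie within the dotted lines.

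Crem rose at both transitions. It stood at 9.35, 9.60 and 9.20 FPKM in spermatogonia, at 131, 115 and 114 in pachytene and at 308, 275 and 308 in round spermatids. The 3 stages did not overlap, and pachytene replicate 1 was above the other 2 of its stage. The means were 9.38 ± 0.203, 120.0 ± 9.28 and 297 ± 19.2 FPKM (SD, n = 3 each). The log2 fold change was 3.66 (SE 0.0682, adjusted p = 5.39e-11) into pachytene and 1.31 (adjusted p = 1.90e-07) into round spermatids. Crem lies on chromosome 18 from 3266048 to 3337748 (GRCm38, minus strand). Its 39 annotated transcripts include activators and the ICER repressors, which a value per gene does not separate. An opposite-strand transcript, Gm6225, overlaps 472 of its 5895 exon bases. In the same table as Crem it was at 0.947, 0.686 and 0.710 FPKM in spermatogonia, 2.74, 2.83 and 2.65 in pachytene and 6.09, 6.48 and 6.33 in round spermatids. The authors' lncRNA table gives other levels for the same transcript, so its values cannot be set against those of Crem. It lists Gm6225 at 42.4, 22.9 and 18.4, at 83.6, 64.1 and 42.5, and at 165, 122 and 55.7 FPKM in the same order. Gm6225 was thus lowest in spermatogonia in both tables, as Crem was, and its part in the level of Crem was not tested.

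Fhl5, the LIM-domain coactivator of CREM, had the largest rise into round spermatids of the 10. It stood at 0.904, 0.780 and 0.785 FPKM in spermatogonia, 22.1, 22.1 and 20.03 in pachytene and 275, 250.5 and 264 in round spermatids. The stages were far apart. Fhl5 was well below Crem in pachytene, and in round spermatids the libraries of the pair overlapped. The log2 fold changes were 4.54 (SE 0.0719, adjusted p = 1.90e-11) and 3.62 (adjusted p = 1.39e-09), and 8.16 over both steps. Its pachytene mean was 8.13% of the round spermatid mean, inside the 7.44% to 12.8% at which 14 spermatid markers stood. In 1 alternative, the median share of those markers, 8.84% of the round spermatid level, was subtracted from pachytene, and negative results were cut off at the floor. As 8.13% is less than 8.84%, this put Fhl5 at the floor in pachytene by construction. The resulting log2 fold change against spermatogonia of -3.20 is set by the added 0.1 FPKM and is not a measured fall. Crem, at 40.4%, kept its rise.

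The partners of Crem and Fhl5 did not follow one pattern, nor did features in general. Over all tested features 36.6% rose and 31% fell into pachytene, and 27.3% rose and 13.4% fell into round spermatids. Of 12 CREB family members, coactivators, kinases and carriers, 4 rose, 6 fell and 2 did not pass into pachytene, and 3 rose, 1 fell and 8 did not pass into round spermatids, with medians of -0.87 and 0.33. Creb3l4, a membrane-bound CREB-like factor of spermatids, rose from 0.657 ± 0.128 to 29.1 ± 1.21 and then to 274 ± 1.99 FPKM. Kif17, the motor that carries FHL5 protein, rose from 1.67 ± 0.124 to 10.9 ± 0.247 and 124 ± 5.61 FPKM. The same subtraction took its pachytene level near the floor, and its first step became -3.60 in place of 2.64. Prkacb, a catalytic subunit of protein kinase A, fell into pachytene from 13.9 ± 1.14 to 2.62 ± 0.340 FPKM. Prkaca, another catalytic subunit, rose there from 18.8 ± 3.59 to 45.2 ± 1.12 FPKM. Crtc3, a coactivator of CREB, fell at both steps (-1.96 and -1.02). Its second fall was under the size required in some alternatives, such as a pseudocount of 1 FPKM (-0.60). Camk4, a kinase of the pathway, was at 0.823 ± 0.0771, 0.458 ± 0.0548 and 4.82 ± 0.303 FPKM, and rose at the second step.

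Most genes known to need CREM or to be bound by it rose at both steps. Of 12, of which 4 are also spermatid markers here, 11 rose into pachytene and 11 into round spermatids, with median log2 fold changes of 9.73 and 3.29. Over all features 36.6% and 27.3% rose at these steps. Protamine 1, Prm1, which packs sperm DNA, stood at 0.0240 ± 0.0416, 409 ± 48.2 and 4086 ± 83.8 FPKM. Tnp2, a transition protein, stood at 0.0578 ± 0.0270, 274 ± 9.94 and 3070.0 ± 58.6. Ldhc, the lactate dehydrogenase of germ cells, was already at 4240.2 ± 161 FPKM in pachytene and was the gene that did not pass at the second step, at 4539.8 ± 101 in round spermatids. Akap4 and Gapdhs, parts of the sperm tail sheath and its glycolysis, rose by 8.23 and 8.47 into pachytene and by 3.52 and 3.54 into round spermatids. With the spermatid share subtracted, 6 of the 12 rose and 2 fell into pachytene in place of 11 and 0, whereas 11 still rose into round spermatids. The share comes from markers that include 4 of these 12, so these counts are largely fixed by construction and test nothing about the targets.

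**Figure D3:**
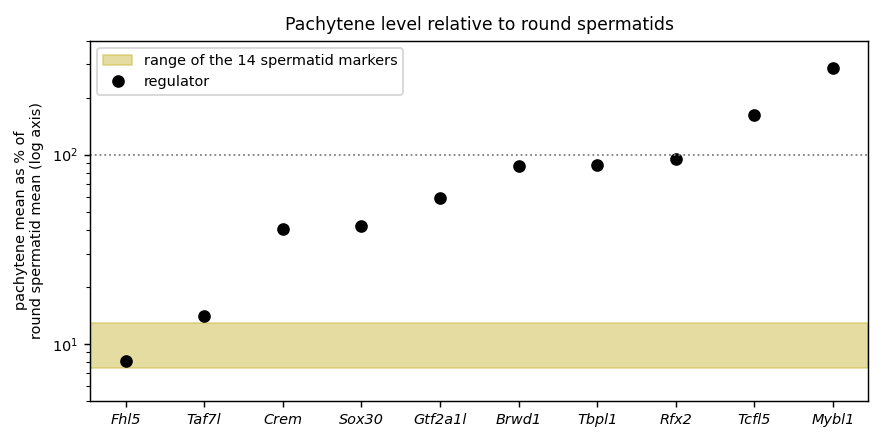
Pachytene mean as a percentage of the round spermatid mean for each regulator (log axis), with a band for the range of 14 spermatid markers. Fhl5 at 8.13% lies in the band of 7.44% to 12.8%, Taf7l at 13.9% just above it, and Tcfl5 and Mybl1 exceed 100.0%.

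Tbpl1, the TBP relative that binds TFIIA and is needed for spermatid development in mice, was the most abundant regulator in pachytene and in round spermatids. It stood at 17.8, 19.996 and 17.8 FPKM in spermatogonia, 455, 474 and 473 in pachytene and 532, 505 and 556 in round spermatids. The step into pachytene was the large one (log2 fold change 4.65, SE 0.0616, adjusted p = 6.56e-12). The round spermatid libraries all lay above those of pachytene, but the difference of 0.18 (adjusted p = 0.0230) was under the size required, and with equal library medians it was -0.18. An opposite-strand gene, Slc2a12, overlaps 407 of its 3271 exon bases and stayed at 0.205 to 2.53 FPKM. Tbp itself rose into pachytene from 15.4 ± 0.556 to 122 ± 1.36 FPKM and stood at 90.4 ± 6.42 in round spermatids. Within a library, Tbpl1 was at 1.20 ± 0.0466 times the level of Tbp in spermatogonia, 3.82 ± 0.110 times in pachytene and 5.88 ± 0.156 times in round spermatids.

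Gtf2a1l, the germ cell form of the large TFIIA subunit, went from near the floor of detection to a high level. It stood at 0.0632, 0.0633 and 0.0579 FPKM in spermatogonia, 179, 183 and 176 in pachytene and 302, 299 and 314 in round spermatids. Spermatogonia held 0.0343% of its pachytene level, the smallest share of the 10. The log2 fold change of 10.12 (SE 0.0450, adjusted p = 3.18e-14) depends on the pseudocount of 0.1 FPKM, and it ran from 7.41 to 11.29 over the alternatives. Into round spermatids the difference was 0.76 (adjusted p = 4.16e-07), with no overlap of libraries but under the size required. Its somatic counterpart Gtf2a1 rose into pachytene from 15.6 ± 0.310 to 32.8 ± 0.833 FPKM and was at 16.5 ± 1.07 in round spermatids. The ratio of Gtf2a1l to Gtf2a1 was 0.00395 ± 0.000154 in spermatogonia, 5.47 ± 0.214 in pachytene and 18.5 ± 0.992 in round spermatids.

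Taf7l, the X-linked relative of the TFIID subunit gene Taf7, fell and then rose. It stood at 87.5, 86.1 and 67.8 FPKM in spermatogonia, 6.37, 6.19 and 6.75 in pachytene and 47.1, 42.0 and 49.4 in round spermatids. Pachytene was the low stage, and spermatogonia replicate 3 was the lowest library of its stage. The log2 fold changes were -3.61 (SE 0.103, adjusted p = 9.63e-10) and 2.82 (adjusted p = 2.25e-08), and round spermatids against spermatogonia differed by -0.79 (adjusted p = 5.71e-05), under the size required. Its locus is chrX:134460118-134476490 (GRCm38, minus strand). The X chromosome is silenced in pachytene spermatocytes. Of 795 tested X-linked features 518 (65.2%) fell into pachytene and 497 (62.5%) rose into round spermatids, with medians of -2.32 and 1.57. Among all features 9.51% fell and then rose as Taf7l did, and among X-linked ones 276 did (34.7%). The sums of Sertoli and of interstitial markers, though not every marker, were also highest in the spermatogonia libraries. The part of such cells in the level of Taf7l was not tested.

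Taf7, the autosomal relative, moved otherwise. It was at 34.2 ± 3.61 FPKM in spermatogonia and 27.2 ± 1.46 in pachytene (log2 fold change -0.32). It fell into round spermatids to 13.5 ± 0.803 (-1.01, adjusted p = 4.75e-06). That fall was just under the size required in some alternatives, such as a pseudocount of 1 FPKM (-0.96). Taf7l was thus at 2.35 ± 0.0852 times Taf7 in spermatogonia, 0.237 ± 0.00899 times in pachytene and 3.43 ± 0.0867 times in round spermatids. In pachytene the autosomal form was the more abundant of the pair, and in the other stages the X-linked form was.

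Among the other subunits of TFIID, TFIIA and TFIIB, changes went both ways. Of 19, 10 rose, 3 fell and 6 did not pass into pachytene, and 3 rose, 2 fell and 14 did not pass into round spermatids, with medians of 1.07 and 0.05. The shares that passed at the 2 steps over all features were 67.6% and 40.8%. Taf9, whose locus also encodes the kinase AK6 so that its value is uncertain, rose from 13.8 ± 0.892 to 784 ± 21.1 FPKM and was at 815 ± 44.2 in round spermatids. Taf1, the largest TFIID subunit, fell from 27.1 ± 1.04 to 1.82 ± 0.514 FPKM and rose to 6.69 ± 1.25, and Taf9b, the Taf9 copy, fell from 23.0 ± 2.36 to 2.64 ± 0.0468 and rose to 17.8 ± 1.09; both are X-linked. The third subunit that fell into pachytene was the autosomal Taf4b (log2 fold change -1.98). Taf13 rose into round spermatids (2.40) and Taf2 fell (-2.04), from 50.1 ± 0.564 to 12.1 ± 0.642 FPKM. With equal library medians, 5 of the 19 fell at the second step in place of 2.

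**Figure D4:**
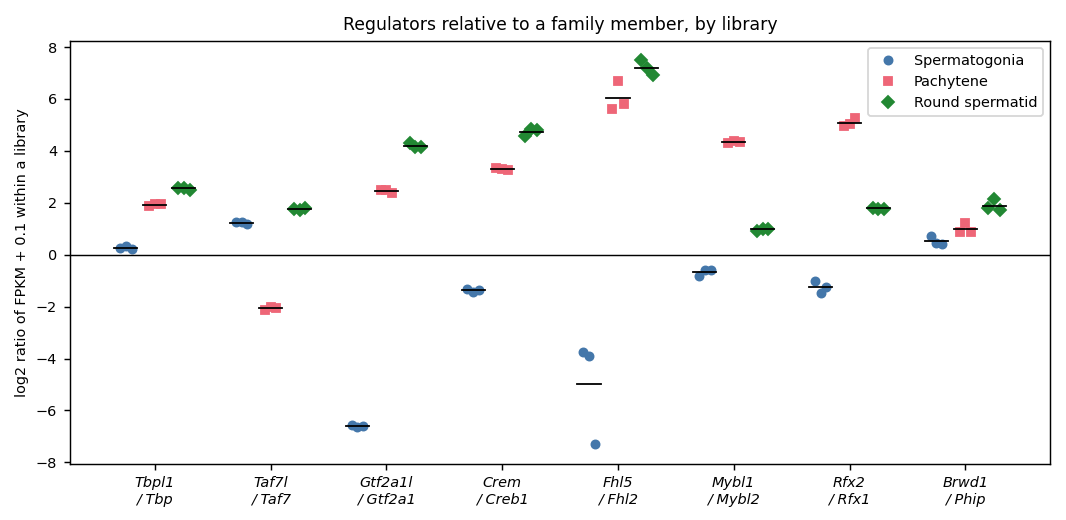
log2 ratio of each regulator to a relative within a library, (FPKM + 0.1) over (FPKM + 0.1), by stage; a point is a library and a line is the mean of 3. Gtf2a1l, Tbpl1, Crem, Fhl5 and Brwd1 gain on the relative shown at both steps. Mybl1 and Rfx2 lose ground after pachytene, and Taf7l is below Taf7 in pachytene alone. Fhl5 is set against Fhl2 only, not against Fhl4.

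Rfx2, an X-box factor of spermatid and cilium genes, rose into pachytene and did not pass the test after it. It stood at 1.45, 1.08 and 1.20 FPKM in spermatogonia, 89.9, 88.7 and 93.8 in pachytene and 92.4, 98.4 and 96.0 in round spermatids. The spermatogonia libraries lay far below the others, whereas pachytene and round spermatid libraries overlapped. The log2 fold change was 6.09 (SE 0.0901, adjusted p = 1.24e-11) into pachytene and 0.07 (SE 0.0901, adjusted p = 0.479) into round spermatids, which does not show that the levels are equal. Its relatives Rfx1 and Rfx3 rose after pachytene instead, Rfx1 from 2.59 ± 0.201 to 27.7 ± 1.29 FPKM and Rfx3 from 3.15 ± 0.207 to 16.4 ± 0.494, while Rfx4 rose at both steps (0.0520 ± 0.0156, 40.9 ± 1.40 and 84.1 ± 4.01 FPKM). The ratio of Rfx2 to Rfx1 was 0.408 ± 0.0727 in spermatogonia, 35.3 ± 3.83 in pachytene and 3.46 ± 0.0586 in round spermatids.

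Of 10 genes known as RFX targets, 9 rose into pachytene and 1 did not pass. Into round spermatids 3 rose, 1 fell and 6 did not pass, and the medians were 3.52 and -0.33. Over all features 36.6% rose into pachytene, and 27.3% rose and 13.4% fell into round spermatids. Spag6, an axoneme protein, rose from 0.483 ± 0.123 to 349 ± 2.75 FPKM and was at 236 ± 9.06 in round spermatids. Ift172 and Ift122, which carry cargo along cilia, rose by 4.47 and 4.05. Hist1h1t, the linker histone H1t of spermatocytes, rose to 1973 ± 79.9 FPKM and fell to 172 ± 5.61. Foxj1, a master factor of motile cilia, rose at both steps (3.96 and 3.64). With the spermatid share subtracted, 7 of the 10 rose and 2 fell, and the first step of Foxj1 became -2.80. That value is set by the floor and the added 0.1 FPKM.

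Sox30 rose at both steps from a low level. It stood at 0.792, 0.932 and 0.666 FPKM in spermatogonia, 14.7, 14.8 and 14.97 in pachytene and 36.2, 34.2 and 35.5 in round spermatids. No stages overlapped, and it was the least abundant of the 10 in pachytene after Taf7l. The log2 fold changes were 4.07 (SE 0.1001, adjusted p = 3.58e-10) and 1.25 (adjusted p = 3.30e-06). Sox5 and Sox6, HMG-box relatives that also rose at both steps, reached 122 ± 0.429 and 27.3 ± 1.14 FPKM in round spermatids. Pachytene held 42.0% of the round spermatid level of Sox30, and the first step of Sox5, but not that of Sox30, was reversed by the subtraction (3.24 against -2.35). Sox5 in pachytene was at 0.085 of its round spermatid level, so its reversal largely follows from how the subtraction is built.

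Mybl1 was the sole regulator called highest in pachytene, which 7.2% of all features were. It stood at 5.77, 7.19 and 6.02 FPKM in spermatogonia, 62.6, 59.5 and 57.4 in pachytene and 21.03, 20.2 and 21.7 in round spermatids. The stages were well separated, and the level in round spermatids was still above that in spermatogonia. The log2 fold changes were 3.23 (SE 0.0825, adjusted p = 4.59e-10) and -1.51 (adjusted p = 2.56e-07). Mybl2, or B-MYB, of dividing cells, went the other way, falling from 10.1 ± 0.952 to 2.84 ± 0.183 FPKM and rising to 10.6 ± 0.544. The ratio of Mybl1 to Mybl2 was 0.627 ± 0.0556, 21.1 ± 0.499 and 1.97 ± 0.0643 in the order of the stages. Crem, Fhl5 and Sox30 were called highest in round spermatids, as 17.8% of all features were, and no regulator in spermatogonia, as 24.3% were. With equal library medians these calls changed: Fhl5 alone was highest in round spermatids, Mybl1 and Tcfl5 were in pachytene, and Taf7l and Brwd1 were in spermatogonia.

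Most genes of the piRNA pathway known as targets of A-MYB rose into pachytene, and 5 then fell. Of 10, 9 rose into pachytene and 1, Mov10l1, did not pass. Into round spermatids 5 fell, 5 did not pass and none rose, and the medians were 3.64 and -1.28. Over all features 36.6% rose into pachytene, and 27.3% rose and 13.4% fell into round spermatids. Piwil1, the piRNA-binding protein MIWI, stood at 0.903 ± 0.106, 259 ± 7.19 and 33.0 ± 0.794 FPKM. Tdrd1, Tdrd5 and Pld6, a tudor pair and a mitochondrial piRNA factor, also fell (log2 fold changes -2.53, -2.70 and -2.51), as did Henmt1. Tdrd6 and Mael did not, at 439 ± 11.9 and 371 ± 16.5 FPKM for Tdrd6 and 1195 ± 28.0 and 1331 ± 17.8 for Mael in pachytene and round spermatids.

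**Figure D5:**
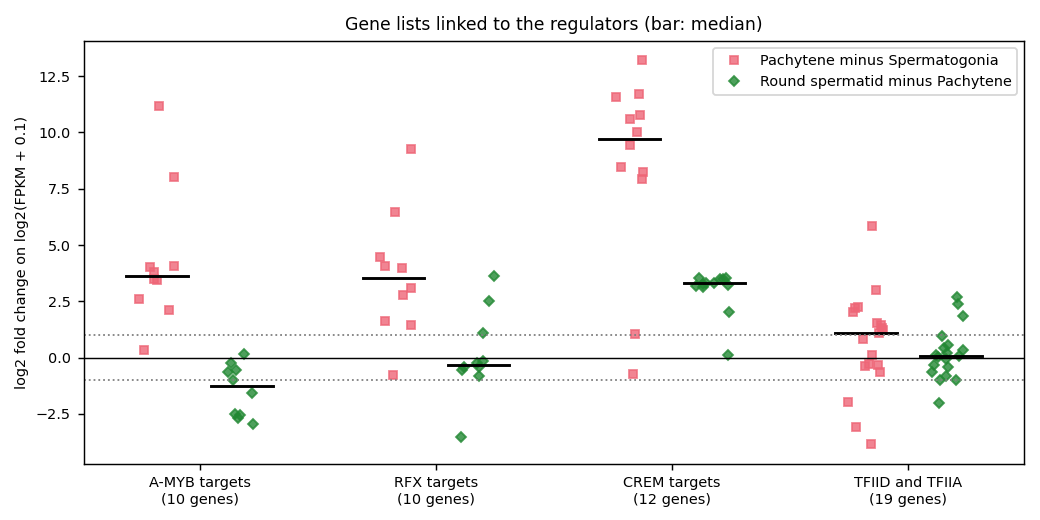
log2 fold change of every gene in 4 lists (A-MYB targets, RFX targets, CREM targets, and subunits of TFIID, TFIIA and TFIIB); squares are pachytene minus spermatogonia, diamonds round spermatids minus pachytene, and bars medians. CREM targets have medians of 9.73 and 3.29, while A-MYB targets have 3.64 and -1.28.

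Tcfl5 had a rise like that of Tbpl1 and a smaller later drop than Mybl1. It stood at 16.9, 16.3 and 12.8 FPKM in spermatogonia, 383, 373 and 377 in pachytene and 230.5, 234 and 237 in round spermatids. Pachytene was the high stage in every library. The log2 fold change was 4.63 (SE 0.0913, adjusted p = 7.90e-11) into pachytene. The later difference of -0.69 (adjusted p = 9.85e-05) was under the size required, and the authors' deposited table lists it at -0.69. An opposite-strand gene, Col9a3, overlaps 234 of its 3166 exon bases and stayed at 1.25 to 5.35 FPKM.

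Brwd1 differed least between stages of the 10. It stood at 61.7, 70.2 and 62.1 FPKM in spermatogonia, 28.8, 30.0 and 28.9 in pachytene and 33.3, 33.6 and 34.4 in round spermatids. The spermatogonia libraries were all higher than the rest, and pachytene was below round spermatids without overlap. The log2 fold change was -1.14 (SE 0.0570, adjusted p = 5.05e-08) into pachytene, and 0.21 (adjusted p = 0.00912) into round spermatids, which was under the size required and became -0.15 with equal library medians. Its relatives fell as well: Phip went from 45.2 ± 6.62 to 14.7 ± 1.55 FPKM and was then at 9.08 ± 1.42, and X-linked Brwd3 went from 5.95 ± 0.311 to 1.06 ± 0.00876 and rose to 3.74 ± 0.547. Brwd1 stood at 1.45 ± 0.164, 2.01 ± 0.273 and 3.78 ± 0.616 times the level of Phip. An opposite-strand transcript, Gm15342, overlaps 95 of the 20280 exon bases of Brwd1. It was at 1.65, 1.69 and 1.71 FPKM in spermatogonia and 0.402, 0.360 and 0.302 in pachytene. The lncRNA table, with other levels, lists it at 95.7, 91.7 and 85.9 and at 12.8, 12.6 and 13.8, so it was lower in pachytene in both tables. Its part in the level of Brwd1 was not tested. The sums of Sertoli and of interstitial markers were highest in the same libraries as Brwd1, and the part of such cells in its level was not tested.

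Ratios to a relative were computed for 8 regulators at 2 steps, 16 comparisons in all. On the log2 scale with 0.1 FPKM added to each gene, the libraries of the 2 stages overlapped in none. How often the ratios of other gene pairs overlap was not computed. The plain ratio of Fhl5 to Fhl2 did overlap between pachytene and round spermatids. The exact two-sided permutation test gave p = 0.1 for each, the smallest it can give with 3 libraries against 3, and 0.1 after Benjamini-Hochberg adjustment over the 16. Crem was at 0.383 ± 0.0172 times Creb1 in spermatogonia, 9.91 ± 0.272 times in pachytene and 26.9 ± 2.44 times in round spermatids. Creb1 fell into pachytene (log2 fold change -1.01), which was under the size required in some alternatives, such as equal library medians (-0.91). The ratio of Fhl5 to Fhl2 spread widely, from 0.00560 to 0.0681 in spermatogonia, from 63.2 to 189 in pachytene and from 127 to 194 in round spermatids. Fhl2 was at 13.3, 12.9 and 140.2 FPKM in spermatogonia and at 0.349, 0.117 and 0.263 in pachytene. Spermatogonia replicate 3, which held the high Fhl2 value, was also highest in the sums of interstitial and of blood cell markers. The part of such cells in that value was not tested. Fhl4, another LIM-only relative, was more abundant than Fhl5, at 1.04 ± 0.139, 978 ± 13.9 and 1480.4 ± 64.0 FPKM. Into pachytene it rose more than Fhl5 (log2 fold changes 9.75 and 4.54), so the gain of Fhl5 at that step holds against Fhl2 and not against Fhl4. Among all 21 relatives 19 were tested, of which 8 rose and 7 fell into pachytene and 9 rose and 2 fell into round spermatids. The shares over all features were 36.6% up and 31% down, then 27.3% up and 13.4% down. Myb and Tbpl2 were too low to test, with Tbpl2 listed at 0 in all libraries.

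The order of the regulators within a stage changed. In spermatogonia Taf7l and Brwd1 led, with overlapping libraries, before Tbpl1, Tcfl5, Crem, Mybl1, Rfx2, Fhl5, Sox30 and Gtf2a1l, and Fhl5 and Sox30 overlapped too. In pachytene the order was Tbpl1, Tcfl5, Gtf2a1l, Crem, Rfx2, Mybl1, Brwd1, Fhl5, Sox30 and Taf7l, and no neighbours overlapped. In round spermatids it was Tbpl1, Gtf2a1l, Crem, Fhl5, Tcfl5, Rfx2, Taf7l, Sox30, Brwd1 and Mybl1. There Gtf2a1l and Crem, Crem and Fhl5, and Sox30 and Brwd1 overlapped. Replicates were close, with a median coefficient of variation over the regulators of 10.2% in spermatogonia, 2.66% in pachytene and 3.36% in round spermatids.

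Features with the most similar pattern were sought among 9164 protein-coding ones with a mean of at least 5 FPKM, by Pearson's r over the 9 libraries on log2(FPKM + 0.1). With 3 stages, r is high for many features and takes no account of amplitude, so it is given as a description. Gtf2a1l was nearest to Adam3 (r = 0.99999) and Hdhd1a (0.99998), both listed at 0 in spermatogonia, and Tbpl1 to Prdx6b (0.99991) and Ttc29 (0.99987). Crem was nearest to Fxr1 (0.9997), an RNA-binding protein gene, and to Spz1 (0.99943), a bHLH-zip factor of the testis that rose from 0.00695 ± 0.00605 to 52.7 ± 1.54 and 585 ± 26.0 FPKM. Fhl5 was nearest to Ppp2r2b (0.99985) and Gm4907 (0.99981), Sox30 to Adcy10 (0.99978), the soluble adenylyl cyclase of sperm, and Zfp821 (0.99972), and Rfx2 to Abcb9 (0.99987) and Tcp10b (0.99983). Mybl1 was nearest to Gtf2h1 (0.99953), a TFIIH subunit, and Hnrnpll (0.99945), and Tcfl5 to Cct3 (0.9999) and Atl1 (0.99979). The 2 regulators that fell into pachytene had the lowest values, Taf7l with Agap1 (0.99881) and D15Ertd621e (0.99867) and Brwd1 with Exoc4 (0.9975) and Cdc42ep5 (0.99743).

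Among 21 other transcription regulators and meiotic entry factors of the germ line, 9 rose, 10 fell and 2 did not pass into pachytene, and 9 rose, 4 fell and 8 did not pass into round spermatids. The shares over all features were 36.6% up and 31% down, then 27.3% up and 13.4% down. The medians of the 21 were -0.57 and 0.72, against 4.31 and 0.48 for the 10 regulators. Hsf5, a heat shock factor relative of spermatocytes, stood at 0.843 ± 0.118, 171 ± 2.77 and 111 ± 2.91 FPKM, high in pachytene as Tcfl5 was. Brdt, the testis bromodomain protein, was at 5.05 ± 0.374, 173 ± 6.53 and 167 ± 11.4 FPKM, and like Rfx2 it did not pass at the second step. Dmrtb1, which governs the switch to meiosis, rose from 14.4 ± 2.48 to 349 ± 14.9 FPKM. Y-linked Zfy1 and Zfy2 fell into pachytene (log2 fold changes -1.18 and -1.43) and rose after it (3.16 and 3.02), as X-linked Taf7l did.

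The authors' deposited tables of changed features list all 10 regulators for pachytene against spermatogonia, 8 higher and 2 lower. In the authors' deposited table, Gtf2a1l has a log2 fold change of 11.51 and a q-value of 0.000671, Fhl5 one of 4.70 and a q-value of 0.0112, and the other 8 a q-value of 0.000104. For round spermatids against pachytene the authors' deposited table lists 7 of the 10, leaving out Tbpl1, Rfx2 and Brwd1. It lists Gtf2a1l at 0.76 and Tcfl5 at -0.69, which were under the size required here.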

How the data were processed

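The libraries were prepared from total RNA with a stranded Illumina TruSeq kit and read as pairs, per the labels' protocols. Per the submitters' processing notes, the tools were Cuffdiff 2.2.1, TopHat2 2.0.12, Trim Galore and FastQC, and the build was mm10. Not given in the sources used here are the annotation release, the tool options and any use of strand in counting, so reads of overlapping opposite-strand genes could not be told apart from those of a regulator. The authors deposited FPKM values per feature and library for 39336 features, and 31 with a blank were left out. They also deposited tables of called features with a log2 fold change, a p-value and a q-value, from which values are quoted only where named. Their lncRNA table, which gives other levels for the same transcripts, was used only for a pair of transcripts that overlap regulators. Read counts were not used here; steps in the low values imply 17.8 to 60.5 M fragments (M, mega) per library, an estimate with no interval. Coordinates are GENCODE M21 (GRCm38, 1-based), to which 38474 identifiers matched.

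Values were taken as log2(FPKM + 0.1), for the 17987 features that reached 0.5 FPKM in 3 or more libraries. All 9 libraries entered a single model in limma 3.58.1 (R 4.3.3) with a trend on the mean, which gave fold changes, SEs and Benjamini-Hochberg adjusted p-values over all features. Fold changes on this scale understate the change of low genes. The fit was tested on simulated data. A stage was called highest when a feature passed against both others. Every ± is an SD over 3 libraries. Ratios used an exact permutation test in scipy 1.17.1. The regulators and the gene lists were chosen with earlier results of these data known, and target lists are from general knowledge. All 10 regulators are named, with up to 4 called genes of largest change per list and comparison, the relatives, and the 2 nearest features of each; other genes, named as exceptions to a count or as members of a family, were chosen after their values were seen.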

Additional observations from a re-analysis of the deposited data

How the results depend on the processing

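The model was refitted under 18 alternatives: other pseudocounts and filters, no trend, only the stages compared, equal library medians, the spermatid share subtracted, a replicate block and each library left out. Every regulator kept its call at the first transition except Fhl5, reversed to -3.20 with the spermatid share subtracted; that setting also reversed Sox5 (-2.35), Kif17 (-3.60) and Foxj1 (-2.80). By its construction it lowers genes whose pachytene level is a small part of the round spermatid level, and it cuts negative results off at the floor. A reversal under it is thus not a measured fall. Equal library medians moved the median of all features by 0.11, -0.36 and -0.25 (pachytene minus spermatogonia, round spermatids minus pachytene, round spermatids minus spermatogonia). Under that setting 2 regulators were highest in spermatogonia (Taf7l, Brwd1) in place of 0, 2 in pachytene (Mybl1, Tcfl5) in place of 1 and 1 in round spermatids (Fhl5) in place of 3. Calls at the second transition went from 4915 up and 2418 down, 67.0% up, to 3986 up and 4115 down, 49.2% up; Taf7l and Brwd1 then passed between spermatogonia and round spermatids (-1.05 and -1.19). Leaving out a library kept 10, 5 and 8 regulators called. The deviations of same-numbered libraries of different stages correlated at -0.11 to 0.039 over 9 pairs. Such values cannot show whether these libraries shared animals or a preparation. The replicate block gave 12162, 7338 and 12346 changed features against 12154, 7333 and 12336, with 10, 5 and 8 regulators. Of 189 results on 63 named genes, 157 kept direction and call throughout. Values near 0.1 FPKM, such as Gtf2a1l in spermatogonia, are limited by depth and by the pseudocount.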
